A study of Homo sapiens with 20 samples.

Results

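ARP1 is a human multiple myeloma cell line. Its response to indirubin-3'-monoxime (I3MO) was taken here as the difference between 2 libraries of cells treated with 10 µM I3MO and 2 libraries of cells given DMSO, the solvent control. A gene was a member where it had at least 1 FPKM (the fragments assigned to a gene, scaled to its length and to the library total) in at least 2 of these 4 libraries, which left 10208 of the 60483 genes listed. Of the members 8370 are protein-coding, 834 are long non-coding and 598 are pseudogenes. The direction of change had no part in the choice, but 889 members reached the minimum through the I3MO libraries only and 281 through the DMSO libraries only, so these had to differ. At the threshold ATG7 lay just inside, with a second highest value of 1.0001 FPKM, and PJA1 just outside with 0.99979 FPKM.

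The series holds 20 libraries of total RNA from 5 myeloma cell models, with 2 libraries for each of 10 groups. The cells are labelled as wild type and of bone marrow source, and no genetic change is named for any group used here. RPMI8226 and U266, 2 further myeloma lines, also had 10 µM I3MO or DMSO and serve below as the comparison, while the remaining models, ANBL6 and its variant ANBL6BR, had 5 µM and enter only through the pooled spread. Each model is a single line, the treatment time is not given in the sources used here, and nothing says that the libraries of a group came from separate cultures. The p-values below therefore measure the spread between these libraries, which may be technical, and in bulk RNA fewer cells in a state and less RNA per cell cannot be told apart.

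I3MO belongs to the indirubins, bisindole compounds known as inhibitors of cyclin-dependent kinases and GSK3 and as ligands of the aryl hydrocarbon receptor. The integrated stress response, which many of the members below belong to, starts when an eIF2 kinase is activated by amino acid shortage, endoplasmic reticulum (ER) stress or heme loss. General translation then falls while translation of the transcription factor ATF4 rises, and ATF4 with C/EBP partners drives genes of amino acid synthesis, amino acid uptake, tRNA charging and redox supply. Myeloma cells are malignant plasma cells with a large secretory load, and depend on ER folding and on the proteasome.

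With limma at an adjusted p under 0.05, 5801 of 15687 fitted genes were called between I3MO and DMSO, 37%, with 23.1% higher and 13.9% lower. Of the 10208 members 5162 were called (50.6%), 3130 higher (30.7%) and 2032 lower (19.9%). The 4 libraries did not overlap between the groups for 76.4% of members and 64.3% of fitted genes. Groups that do not overlap are thus the rule, and below this is said only to describe the libraries of a gene. The calls were at least 2-fold for 737 members that rose and 188 that fell. Fold changes are on the log2(FPKM + 1) scale throughout, which understates the change of low genes, and every ± is a standard error (SE). The median member changed by 0.07 on this scale, and by -0.11 after median-ratio scaling of the libraries, which left 2261 members higher and 3223 lower.

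The call of a gene followed its base composition. In the quintile of protein-coding members with the lowest GC share of the longest transcript, 31.3% to 41.0%, 1282 of 1674 members rose and 29 fell, with a median log2 change of 0.70. In the highest quintile, 58.2% to 73.7% GC, 144 rose and 627 fell, with a median of -0.21. Over 8370 genes the rank correlation of the response with GC share was -0.61, given as a description over genes that share the 4 libraries, against 0.10 in RPMI8226 and -0.01 in U266. Libraries of the same group also differed along GC share. In the lowest quintile DMSO library 2 exceeded DMSO library 1 by a median of 0.30, and I3MO library 2 lay below I3MO library 1 by 0.18 (median of -0.18).

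**Figure D1:**
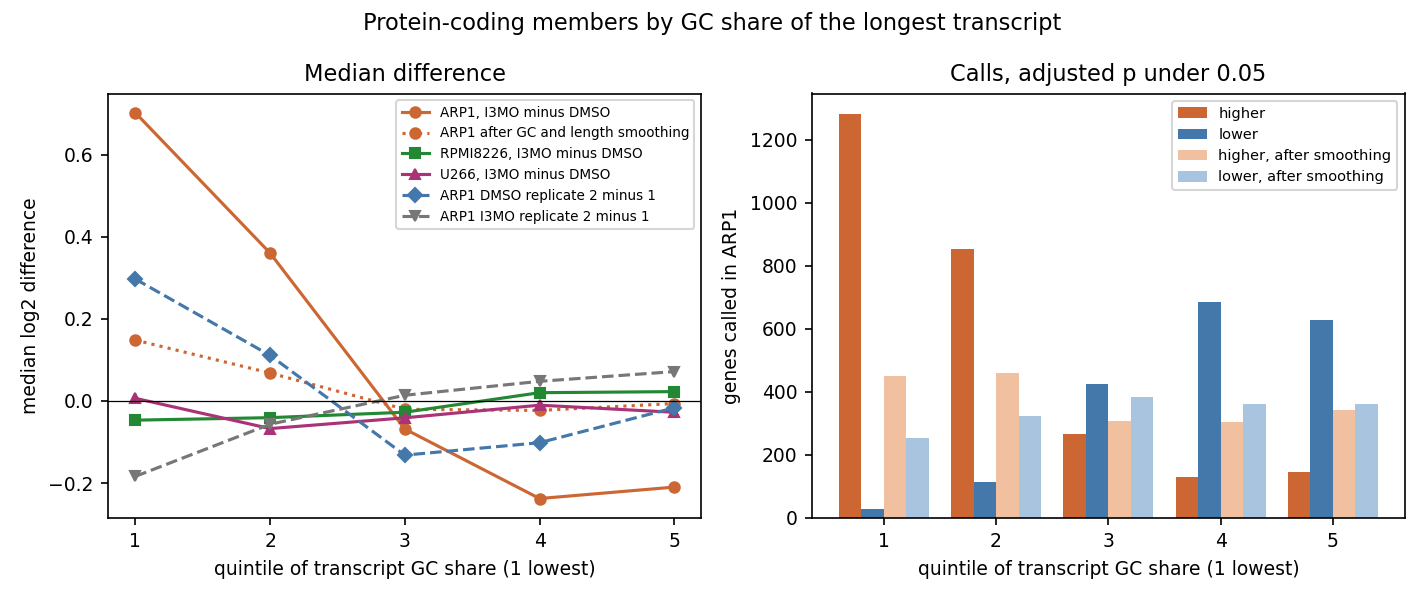
Left, median log2 difference for protein-coding members in quintiles of transcript GC share, for the ARP1 response, the same after GC and length smoothing, the RPMI8226 and U266 responses, and the differences between libraries of the same ARP1 group. Right, number of members called higher or lower in each quintile, before and after smoothing. The ARP1 response runs from 0.70 in the lowest quintile to -0.21 in the highest, and RPMI8226 and U266 stay between -0.07 and 0.02.

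Because of this pattern the fit was repeated after each library's deviation along GC share and transcript length had been smoothed and removed, a step chosen after the data were seen. After smoothing 4461 of the fitted genes were called (28.4%). Of the members 2238 were higher (21.9%) and 1798 lower (17.6%), 2085 calls were lost, and 30 members were called in the opposite direction. Of the calls of at least 2-fold, 220 of 737 rises and 117 of 188 falls were still called at least 2-fold. The smoothing also removes any true response that follows GC share or length, and whether the GC pattern arose in the cells or in library preparation was not tested. A call is termed firm below where it also passed, in the same direction, after smoothing, under median-ratio scaling and in each of 4 fits that left out 1 ARP1 library. Of the 10208 members 1203 were firm and higher and 938 firm and lower, and the firm counts of the lists below are to be read beside these. The term covers the direction of a call and not its size. Sizes below are those before smoothing unless stated, and smoothing moved them either way. Among firm rises UCHL5 went from 1.09 to 0.29 and LAMP2 from 1.16 to 0.38, while INHBE went from 2.40 to 2.65. A fit to the 4 ARP1 libraries alone called 227 genes, so most calls rest on the spread pooled over the 10 groups. The fragment totals implied by the steps between the FPKM values of single-exon genes were 15010000 to 18030000 for the ARP1 libraries, and 20837 and 21340 genes were above 0 with DMSO against 23518 and 23019 with I3MO. Of 9 plasma cell markers 8 were members, XBP1 being listed at 0 in all 4 libraries, and the summed level of the 9 was 534 and 619 FPKM with DMSO and 467 and 469 with I3MO. Of 4 B cell markers MS4A1 and CD22 were at 0, and the 4 summed to 1.43 and 1.25 FPKM with DMSO and 0.875 and 0.657 with I3MO. The summed markers of T and NK, myeloid, stromal, endothelial, erythroid and epithelial cells each stayed under 1 FPKM in every ARP1 library.

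The 12 largest rises among protein-coding members ran from 2.03 to 3.40 on the log2 scale, in genes of varied function. Positions are those of GENCODE 29 on GRCh38. CRYBB1, which encodes the lens protein beta-crystallin B1 (chr22:26599278-26618088), had 2.28 and 4.45 FPKM with DMSO and 38.3 and 49.6 with I3MO, a log2 change of 3.40 ± 0.57 (limma adjusted p = 0.00063). IL10, encoding the cytokine interleukin 10 (chr1:206767602-206772494), had 0 and 0.0862 FPKM with DMSO and 9.503 and 10.1 with I3MO, a log2 change of 3.37 ± 0.08 (limma adjusted p = 2.95e-10). SLC7A11, which carries cystine into the cell in exchange for glutamate (chr4:138164097-138242349), had 0.565 and 0.989 FPKM with DMSO and 15.9 and 9.3 with I3MO, a log2 change of 2.90 ± 0.37 (limma adjusted p = 0.000111). For these 3 genes both I3MO libraries stood above both DMSO libraries. IL10 and SLC7A11 were members through the I3MO libraries only. INHBE, a secreted activin subunit, had 6.905 and 5.96 FPKM with DMSO and 36.2 and 40.4 with I3MO, a log2 change of 2.40 ± 0.16 (limma adjusted p = 7.93e-07). CTH, which makes cysteine from cystathionine (chr1:70411218-70439851), had 2.45 and 2 FPKM with DMSO and 16.5 and 13.9 with I3MO, a log2 change of 2.33 ± 0.17 (limma adjusted p = 2.05e-06). ASS1, which joins citrulline and aspartate in arginine synthesis, had 3.69 and 3.42 FPKM with DMSO and 19.7 and 20.8 with I3MO, a log2 change of 2.22 ± 0.12 (limma adjusted p = 2.84e-07). The groups lay far apart in all 3, with little spread within a group. The other 6 of the 12 largest rises were LRRC58, SESN3, DNAJC3, GPRIN3, RAB39B and SLC38A1, with log2 changes from 2.03 for SLC38A1, a glutamine transporter, to 2.43 for LRRC58. In all 6, and in SLC7A11, the higher DMSO library was library 2 and the higher I3MO library was library 1, as in the lowest quintile of GC share. SESN3 was a member through the I3MO libraries only.

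CUX2, a homeobox transcription factor (chr12:111034024-111350554), had 8.898 and 7.85 FPKM with DMSO and 0.0725 and 0.117 with I3MO, a log2 change of -3.10 ± 0.17 (limma adjusted p = 2.87e-07). ID2, an inhibitor of basic helix-loop-helix factors (chr2:8678845-8684453), had 20.8 and 20.1 FPKM with DMSO and 1.76 and 2.41 with I3MO, a log2 change of -2.80 ± 0.21 (limma adjusted p = 2.99e-06). SOCS1, a brake on cytokine receptor signalling through JAK kinases (chr16:11254405-11256200), had 5.64 and 5.12 FPKM with DMSO and 0.544 and 0.197 with I3MO, a log2 change of -2.23 ± 0.19 (limma adjusted p = 5.91e-06). In each of these both I3MO libraries were low and both DMSO libraries well above them. CUX2 and SOCS1, and DPEP3 below, were members through the DMSO libraries only, so their direction was fixed by that. KLF2, a zinc finger factor of quiescence and lymphocyte trafficking, had 94.2 and 72.7 FPKM with DMSO and 18.8 and 18.8 with I3MO, a log2 change of -2.08 ± 0.38 (limma adjusted p = 0.00117). GPRC5D, an orphan receptor on plasma cells that is a target of myeloma immunotherapy (chr12:12940775-12952147), had 58.3 and 50.1 FPKM with DMSO and 6.9 and 7.38 with I3MO, a log2 change of -2.76 ± 0.61 (limma adjusted p = 0.00376). The DMSO libraries of both genes were several times the I3MO libraries and did not overlap them. NAPSA, an aspartic protease, and DPEP3, a membrane dipeptidase, changed by -1.99 and -2.24. Of the other largest falls H1-2, H1-10, CD74 and HLA-DRA are described with their families below. All 24 calls were firm.

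**Figure D2:**
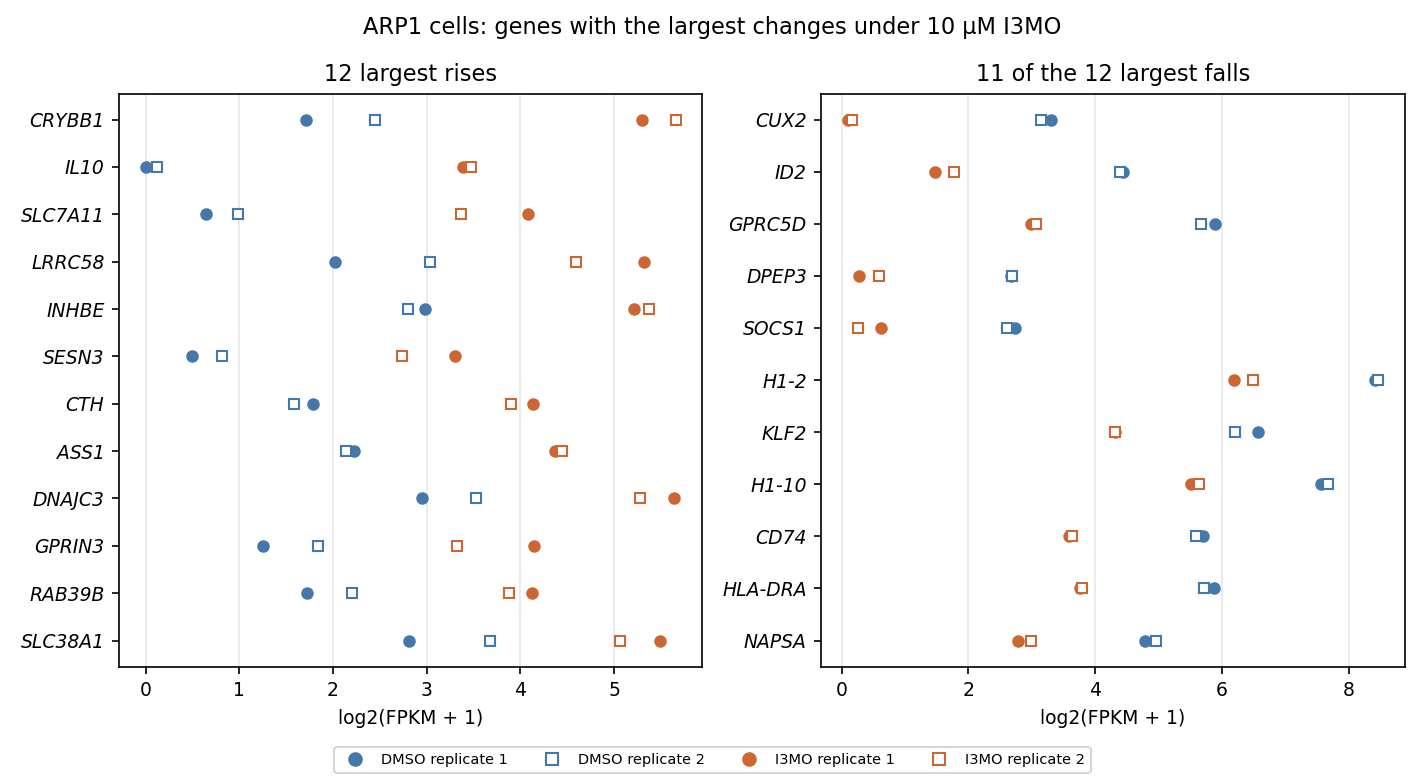
Level of the 12 protein-coding members with the largest rises and 11 of the 12 with the largest falls, as log2(FPKM + 1), in each DMSO (blue) and I3MO (orange) library of ARP1. Only genes with groups that do not overlap could be chosen. The I3MO libraries lie farthest apart for GPRIN3, LRRC58 and SLC7A11.

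Among the regulators of the integrated stress response 6 of 13 members rose and 1 fell, with 4 and 1 firm, and the median log2 change was 0.49 against 0.07 over all members. Here and below the counts of a list include up to 3 members that reached the FPKM minimum through 1 group only, whose direction the minimum fixed. ATF4 had 109 and 108 FPKM with DMSO and 204 and 226 with I3MO, a log2 change of 0.97 ± 0.10 (limma adjusted p = 2.03e-05). CEBPG, a C/EBP partner of ATF4, had 6.34 and 5.55 FPKM with DMSO and 12.1 and 12.3 with I3MO, a log2 change of 0.93 ± 0.11 (limma adjusted p = 7.22e-05). TRIB3, a pseudokinase induced by and feeding back on ATF4, had 10.4 and 10.2 FPKM with DMSO and 17.5 and 19.2 with I3MO, a log2 change of 0.78 ± 0.14 (limma adjusted p = 0.0011). Both I3MO libraries were above both DMSO libraries in each gene. Of the eIF2 kinases, EIF2AK3 (PERK, the ER stress sensor) rose by 1.07 and EIF2AK1 (the heme-regulated kinase) fell by 0.58, while EIF2AK4 (GCN2, the sensor of uncharged tRNA) had a log2 change of 0.20 that did not pass. DDIT3, encoding CHOP, reached the FPKM minimum in only 1 of the 4 libraries, with 0.488 and 0.566 FPKM with DMSO and 0.731 and 1.02 with I3MO, and was not called (limma adjusted p = 0.381). ATF3, a member through the I3MO libraries only, was called at 0.83 but not without DMSO library 2 (limma adjusted p = 0.105), and PPP1R15A, the phosphatase subunit that reverses eIF2 phosphorylation, was called at 0.63 but not without I3MO library 2 (limma adjusted p = 0.198). ATF5 and CEBPB did not pass (limma adjusted p = 0.164 and limma adjusted p = 0.0652).

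The motif TGATGCAA, the core of the C/EBP-ATF response element that ATF4 dimers bind, was searched on both strands in RefSeq promoter windows of 250 bases before to 50 after a start. It was found for 295 of 27305 genes (1.08%), and for 6 of 16 cytosolic tRNA synthetases with a window. The stretches around the motif (capitals) are shown for 4 genes of the lists here that were called and for BCAT1, the branched-chain aminotransferase, chosen after its value was seen and a member through the I3MO libraries only, on the strand of the gene and in build GRCh38.p14. They lie at chr15:40953238-40953293 for CHAC1, chr12:24949118-24949173 for BCAT1, chr9:92293698-92293734 for IARS1, chr19:33374047-33374102 for CEBPG and chr10:99430791-99430846 for GOT1, with TTGCATCA being the same motif on the other strand.
CHAC1: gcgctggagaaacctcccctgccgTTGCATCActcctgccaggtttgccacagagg
BCAT1: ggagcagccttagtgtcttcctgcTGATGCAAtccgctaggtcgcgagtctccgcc
IARS1: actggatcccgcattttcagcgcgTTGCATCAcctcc
CEBPG: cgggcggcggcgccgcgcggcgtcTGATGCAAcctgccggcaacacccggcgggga
GOT1: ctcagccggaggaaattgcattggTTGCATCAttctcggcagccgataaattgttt

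CHAC1, CEBPG and IARS1 of these 5 rose in a firm way, by 1.95, 0.93 and 1.10, GOT1 was called at 0.38, and BCAT1 had 0.313 and 0.422 FPKM with DMSO and 4.89 and 3.28 with I3MO (log2 change of 1.88 ± 0.18, limma adjusted p = 1.43e-05). The motif stood in the window of 1.16% of protein-coding members that rose, 0.38% of those that fell and 0.703% of those that did not pass, and in 1.56%, 0.576% and 0.549% after smoothing. A match is a description of these letters only, and carriers were not all called. The tRNA synthetases AARS1 (-0.13) and MARS1 (0.16) and the transporters SLC1A4 (0.28) and SLC1A5 (0.26) hold it and did not pass. After smoothing MARS1 (0.38, limma adjusted p = 0.00547) and SLC1A5 (0.51, limma adjusted p = 0.00137) were called higher, whereas AARS1 and SLC1A4 still did not pass.

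Of 10 enzymes of asparagine, proline, alanine and cysteine supply 9 rose, 7 of them firm, none fell, and the median log2 change was 1.13. Under median-ratio scaling 7 rose and 1 fell. ASNS, asparagine synthetase, had 6.26 and 6.42 FPKM with DMSO and 21.2 and 21.7 with I3MO, a log2 change of 1.61 ± 0.13 (limma adjusted p = 4.37e-06). CHAC1, which degrades glutathione, had 1.66 and 1.99 FPKM with DMSO and 10.04 and 9.799 with I3MO, a log2 change of 1.95 ± 0.29 (limma adjusted p = 0.000297). GPT2, the mitochondrial alanine transaminase, had 8.55 and 7.13 FPKM with DMSO and 19.8 and 20.8 with I3MO, a log2 change of 1.27 ± 0.13 (limma adjusted p = 2.38e-05). In each the I3MO libraries lay close together and above the DMSO libraries. CBS, the enzyme before CTH in transsulfuration, rose by 0.90. PYCR1 and GOT1 were called but not without DMSO library 1 (limma adjusted p = 0.186) and I3MO library 2 (limma adjusted p = 0.185). ALDH18A1, which opens proline synthesis, was the member that did not rise (-0.25, limma adjusted p = 0.157).

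In serine and one-carbon metabolism 5 of 11 members rose and 2 fell, with 4 and 0 firm. PSAT1 had 81.6 and 71.4 FPKM with DMSO and 148 and 155 with I3MO (log2 change of 0.98 ± 0.18, limma adjusted p = 0.00118), and SHMT2, the mitochondrial serine hydroxymethyltransferase, had 14.5 and 15.5 FPKM with DMSO and 24.1 and 27.7 with I3MO (log2 change of 0.75 ± 0.10, limma adjusted p = 0.000109). ALDH1L2 rose from low levels, with 0.689 and 1.195 FPKM with DMSO and 5.32 and 3.69 with I3MO (log2 change of 1.5 ± 0.27, limma adjusted p = 0.000967). The groups did not overlap in these 3 genes, which act in serine synthesis or the mitochondrial folate pathway. PHGDH, the first enzyme of serine synthesis, did not pass (0.36, limma adjusted p = 0.0666), though it did after smoothing (0.56, limma adjusted p = 0.00699). MTHFD2 rose by 0.78 and was not called after smoothing (0.21, limma adjusted p = 0.211). TYMS and MTHFD1, of cytosolic folate and thymidylate synthesis, were called lower but not without DMSO library 1 (limma adjusted p = 0.123 and limma adjusted p = 0.21).

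Of 12 amino acid transporters 9 rose, 5 of them firm, and none fell. SLC38A2, a sodium-coupled neutral amino acid transporter, had 2.74 and 4.33 FPKM with DMSO and 17.2 and 13.6 with I3MO, a log2 change of 1.87 ± 0.25 (limma adjusted p = 0.000148). SLC38A1 had 6.04 and 11.8 FPKM with DMSO and 43.8 and 32.4 with I3MO, a log2 change of 2.03 ± 0.33 (limma adjusted p = 0.000508). SLC6A9, a glycine transporter, rose by 0.49 (limma adjusted p = 0.00341). SLC43A1, a carrier of branched-chain amino acids, had 9.19 and 7.22 FPKM with DMSO and 13.6 and 14.4 with I3MO, a log2 change of 0.72 ± 0.15 (limma adjusted p = 0.00254). The I3MO libraries were above the DMSO libraries in SLC38A2, SLC38A1 and SLC43A1. SLC7A5, the light chain of the large neutral amino acid transporter, started at a far higher level and changed little: 143 and 129 FPKM with DMSO and 175 and 176 with I3MO, a log2 change of 0.37 ± 0.08 (limma adjusted p = 0.00298), and under median-ratio scaling its adjusted p was 0.344. Its partner SLC3A2 was called at 0.44 but not without I3MO library 2 (limma adjusted p = 0.151).

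Of 20 cytosolic aminoacyl-tRNA synthetases, which load tRNAs with amino acids, 12 rose and 2 fell, with 9 and 0 firm and a median log2 change of 0.61. EPRS1 had 7.84 and 15.5 FPKM with DMSO and 47.7 and 35.4 with I3MO, a log2 change of 1.80 ± 0.31 (limma adjusted p = 0.000772). NARS1 had 8.396 and 13.7 FPKM with DMSO and 33.9 and 31.5 with I3MO, a log2 change of 1.52 ± 0.18 (limma adjusted p = 6.59e-05). GARS1, the glycyl-tRNA synthetase, had 47.7 and 41.97 FPKM with DMSO and 77.7 and 83.8 with I3MO, a log2 change of 0.84 ± 0.14 (limma adjusted p = 0.000594). Both I3MO libraries were above both DMSO libraries, although the DMSO libraries of EPRS1 and NARS1 themselves lay far apart. LARS1, TARS1, RARS1, IARS1, WARS1 and CARS1 also rose in a firm way, by 1.55, 1.23, 1.10, 1.10, 0.78 and 0.53. SARS1 rose by 0.57 but was not called under median-ratio scaling (limma adjusted p = 0.0682). FARSB rose but was not called after smoothing (0.10, limma adjusted p = 0.537). VARS1, AARS1, YARS1 and HARS1 had log2 changes between -0.13 and -0.01 and did not pass.

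All 4 secreted stress factors that were members rose, each firm, and 1 of them, VEGFA, was a member through the I3MO libraries only. STC2, stanniocalcin 2, had 9.15 and 8.35 FPKM with DMSO and 28.02 and 26.1 with I3MO, a log2 change of 1.53 ± 0.12 (limma adjusted p = 2.99e-06). ADM2, a peptide of the calcitonin family, had 7.07 and 5.95 FPKM with DMSO and 19.2 and 20.8 with I3MO, a log2 change of 1.49 ± 0.14 (limma adjusted p = 1.43e-05). VEGFA, the endothelial growth factor, had 0.993 and 0.969 FPKM with DMSO and 2.62 and 2.57 with I3MO, a log2 change of 0.86 ± 0.07 (limma adjusted p = 7.03e-06). Groups stood apart in each. GDF15, FGF19 and FGF21, which belong to the same list, were no members: FGF21 had 0 FPKM in both DMSO libraries and 0.395 and 0.495 FPKM with I3MO. Of 7 brakes on the growth kinase complex mTORC1 4 rose and none fell, with 3 firm, all of them sestrins, a family of stress-responsive proteins. SESN2 had 20.3 and 17.9 FPKM with DMSO and 63.2 and 60.8 with I3MO (log2 change of 1.65 ± 0.14, limma adjusted p = 5.39e-06). SESN3 had 0.406 and 0.765 FPKM with DMSO and 8.85 and 5.69 with I3MO (log2 change of 2.37 ± 0.14, limma adjusted p = 5.52e-07). SESN1 had 0.641 and 0.699 FPKM with DMSO and 1.56 and 1.57 with I3MO (log2 change of 0.62 ± 0.07, limma adjusted p = 5.21e-05). SESN1, like SESN3, was a member through the I3MO libraries only. DEPTOR, a bound inhibitor of mTOR, did not pass (0.09, limma adjusted p = 0.936).

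Genes of the secretory pathway rose in part. Of 18 ER chaperones and folding enzymes 10 rose and 1 fell, with 5 and 1 firm, and 6 rose without DMSO library 1 and without I3MO library 1. HSPA5, encoding BiP, the main ER chaperone, had 207 and 175 FPKM with DMSO and 295 and 320.2 with I3MO, a log2 change of 0.69 ± 0.15 (limma adjusted p = 0.00337). DNAJB9 and DNAJC3, J-domain cochaperones of BiP, had 3.45 and 4.21 FPKM with DMSO and 19.9 and 16.6 with I3MO (log2 change of 1.99 ± 0.20, limma adjusted p = 2.01e-05) and 6.74 and 10.5 FPKM with DMSO and 48.7 and 37.6 with I3MO (log2 change of 2.22 ± 0.25, limma adjusted p = 4.13e-05). HSP90B1, encoding GRP94, had 23.4 and 34.5 FPKM with DMSO and 80.02 and 68.2 with I3MO, a log2 change of 1.35 ± 0.19 (limma adjusted p = 0.000178). The groups did not overlap in these 4 genes, and all but HSPA5 were firm: under median-ratio scaling its adjusted p with limma was 0.0835. CALR, the lectin chaperone calreticulin, fell, with 198 and 186 FPKM with DMSO and 129 and 144 with I3MO (log2 change of -0.49 ± 0.09, limma adjusted p = 0.00146), while CANX, its membrane-bound relative calnexin, rose, with 25.99 and 32.8 FPKM with DMSO and 63.1 and 56.8 with I3MO (log2 change of 1.01 ± 0.14, limma adjusted p = 0.000204). The protein disulfide isomerases PDIA3, PDIA4, PDIA6 and P4HB had log2 changes between -0.06 and 0.20 and did not pass, and ERO1A, an oxidase of the same pathway, was called at 0.42 and, after smoothing, at -0.32 in the opposite direction. XBP1, the plasma cell factor of ER expansion, was listed at 0 in all 4 libraries, so its response could not be read.

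The ER stress element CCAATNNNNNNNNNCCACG, a CCAAT box spaced from a CCACG part that ATF6 binds with NF-Y, was found on either strand in the windows of 25 of 27305 genes (0.0916%) and in those of 7 of 17 ER chaperones. It is shown in capitals for 3 of these 7 that rose, HSP90B1 (chr12:103930192-103930258), CANX (chr5:179698754-179698820) and HSPA5 (chr9:125241367-125241433), on the strand of the gene in GRCh38.p14.
HSP90B1: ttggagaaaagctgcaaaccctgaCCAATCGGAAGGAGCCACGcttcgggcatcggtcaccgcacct
CANX: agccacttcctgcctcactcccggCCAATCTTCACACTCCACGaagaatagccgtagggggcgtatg
HSPA5: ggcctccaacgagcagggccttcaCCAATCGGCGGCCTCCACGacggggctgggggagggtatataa

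Of the 7 carriers ERO1B, an oxidase that was a member through the I3MO libraries only, rose as well (0.65), CALR fell, and PDIA6 (0.03) and CRELD2 (0.03) did not pass, so chaperones with this element went in different directions. It stood in 6 of 2233 windows of members that rose (0.269%), 1 of 1577 of those that fell (0.0634%) and 5 of 3131 of those that did not pass (0.16%), and after smoothing in 7 of 1543, 1 of 1388 and 4 of 4010.

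In ER-associated degradation and translocation 8 of 16 members rose and none fell, with 3 firm, and without DMSO library 1 or I3MO library 1 the number was 3. EDEM1, a mannosidase-like protein that marks misfolded glycoproteins, had 9.77 and 8.13 FPKM with DMSO and 31.2 and 30.2 with I3MO, a log2 change of 1.68 ± 0.11 (limma adjusted p = 1.28e-06). SEC62 and SEC63, of the translocation pore, rose by 1.55 and 1.78. HERPUD1, a ubiquitin ligase adaptor, was called at 0.70 but not without DMSO library 2 (limma adjusted p = 0.196). In ER to Golgi traffic 12 of 20 members rose and 2 fell, with 7 and 0 firm. LMAN1 and MCFD2, which form a cargo receptor, had 9.55 and 17.7 FPKM with DMSO and 66.9 and 47 with I3MO (log2 change of 2.02 ± 0.31, limma adjusted p = 0.00036) and 2.65 and 2.61 FPKM with DMSO and 7.55 and 6.71 with I3MO (log2 change of 1.16 ± 0.11, limma adjusted p = 1.65e-05). SEC24D, a COPII coat subunit, had 5.09 and 5.17 FPKM with DMSO and 11.4 and 10.5 with I3MO (log2 change of 0.96 ± 0.10, limma adjusted p = 3.08e-05). The I3MO libraries lay above the DMSO libraries in each of these genes. Of 6 ER stress sensors 3 rose and 2 fell, with 2 and 0 firm. ERN1 (IRE1) rose by 0.67, with 7.46 and 5.62 FPKM with DMSO and 11.7 and 10.1 with I3MO (limma adjusted p = 0.00308), and ATF6 rose by 0.82 but was not called after smoothing (0.24, limma adjusted p = 0.0532).

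**Figure D3:**
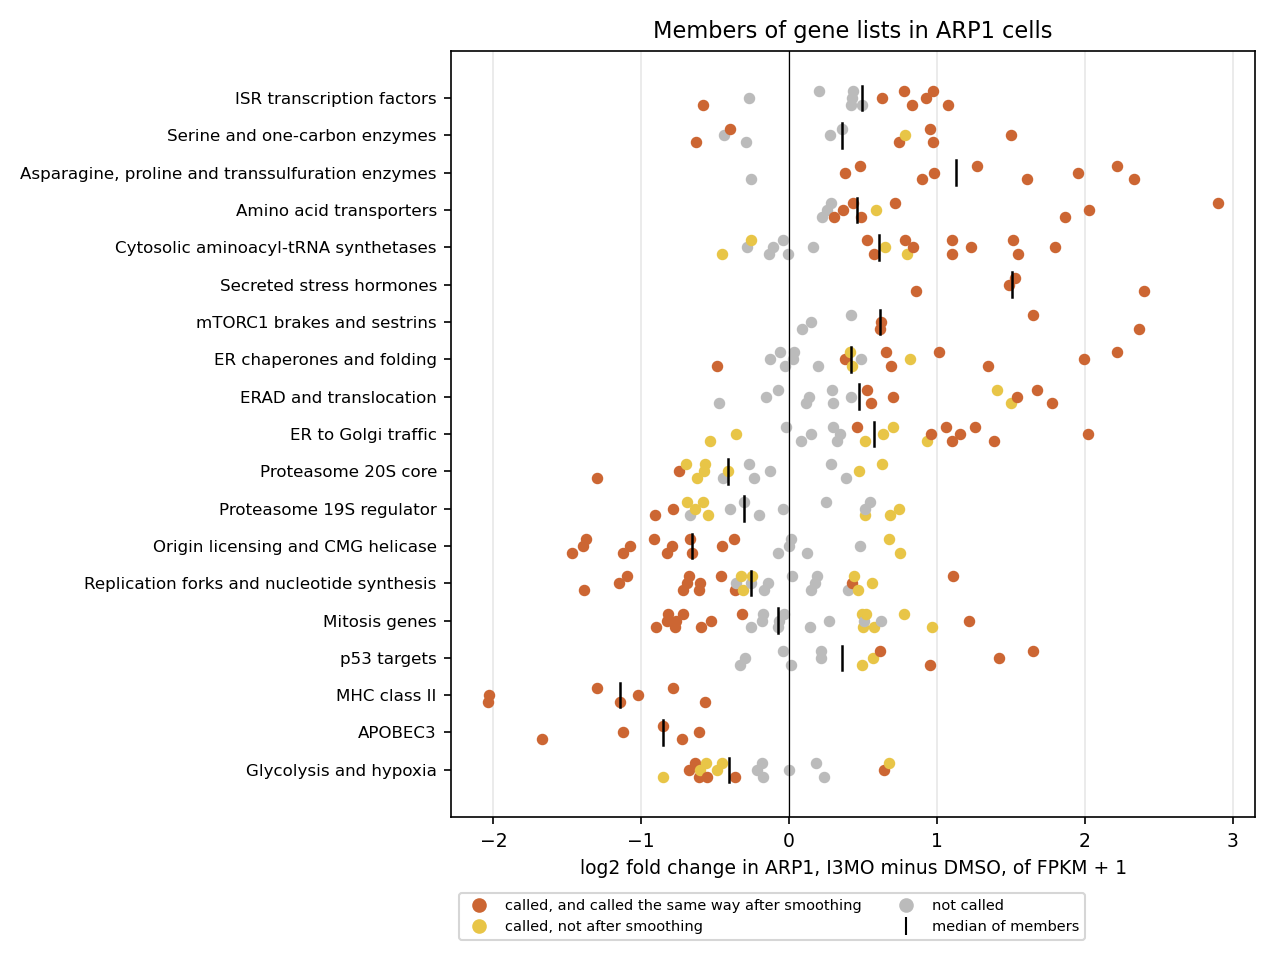
Log2 change, I3MO minus DMSO, of each member of 19 gene lists in ARP1, with a bar at the median of the list. Orange genes were called, and called the same way after GC and length smoothing, yellow genes were called only before smoothing, and grey genes were not called. The medians of the stress response and ER lists lie to the right of 0, and those of the MHC class II, APOBEC3, licensing and proteasome lists to the left.

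Proteasome genes showed no uniform change. Of 15 members of the 20S core 2 rose and 7 fell, and of 17 members of the 19S regulator 3 rose and 6 fell. After smoothing these counts were 0 and 3 for the core and 0 and 2 for the regulator, and under median-ratio scaling they were 0 and 10 and 0 and 9. PSMB9, a subunit of the immunoproteasome, fell in a firm way, with 23.3 and 29.5 FPKM with DMSO and 9.08 and 11.2 with I3MO, a log2 change of -1.30 ± 0.27 (limma adjusted p = 0.00285). PSMC3, an ATPase of the regulator, fell too, with 32.1 and 35.4 FPKM with DMSO and 16.6 and 18.5 with I3MO, a log2 change of -0.91 ± 0.15 (limma adjusted p = 0.00053). Both I3MO libraries were below both DMSO libraries in these genes. PSMB5, the subunit that proteasome inhibitors in clinical use bind, had 14.7 and 17.5 FPKM with DMSO and 12.2 and 14.1 with I3MO and did not pass (-0.27, limma adjusted p = 0.243). PSMD4, a ubiquitin receptor, was called at -0.69 but not without I3MO library 1 (limma adjusted p = 0.0711) or after smoothing (-0.37, limma adjusted p = 0.152). With 1 ARP1 library left out the number that fell ran from 1 (without I3MO library 1) to 7 for the core and from 1 (without I3MO library 1) to 4 for the regulator.

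Of 13 regulators of this system, the NRF factors and deubiquitinases, 6 rose and 2 fell, with 4 and 2 firm. NFE2L1, the transcription factor (NRF1) that restores proteasome genes, was called at 0.40, with 7.96 and 7.11 FPKM with DMSO and 10.5 and 9.95 with I3MO (limma adjusted p = 0.00884), but not without I3MO library 1 (limma adjusted p = 0.0684). DDI2, the protease that activates it, had 1.25 and 2.38 FPKM with DMSO and 7.97 and 5.91 with I3MO, a log2 change of 1.51 ± 0.26 (limma adjusted p = 0.000832). UCHL5, a deubiquitinase of the proteasome, had 2.11 and 2.79 FPKM with DMSO and 6.799 and 5.85 with I3MO, a log2 change of 1.09 ± 0.09 (limma adjusted p = 5.39e-06). The groups did not overlap for either. USP7, a deubiquitinase with many nuclear substrates, had 12.4 and 11.3 FPKM with DMSO and 11.5 and 11.2 with I3MO and did not pass (-0.06, limma adjusted p = 0.7), although it did after smoothing (-0.23, limma adjusted p = 0.0287). NFE2L2, encoding the antioxidant factor NRF2, had 1.04 and 1.51 FPKM with DMSO and 4.71 and 3.57 with I3MO, a log2 change of 1.17 ± 0.13 (limma adjusted p = 3.35e-05), and its repressors BACH1 and KEAP1 moved in opposite directions (1.15 and -0.57, both firm, BACH1 being a member through the I3MO libraries only). Among the 16 members of the NRF2 target list used here none rose and 2 fell, with no firm call. SLC7A11, a firm rise (2.90), was counted with the amino acid transporters and is not in that list, so the count does not cover it. HMOX1, heme oxygenase, had 21.1 and 22.6 FPKM with DMSO and 30.5 and 34.4 with I3MO and an SE of 0.65 around a log2 change of 0.55 (limma adjusted p = 0.597). NQO1, with 7.78 and 7.87 FPKM with DMSO and 9.26 and 9.99 with I3MO, did not pass either (limma adjusted p = 0.0518).

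Of 14 heat shock genes 5 rose and 3 fell, but 1 and 1 were firm, and after smoothing 1 rose and 2 fell. HSPB1, the small heat shock protein HSP27, had 320.3 and 331 FPKM with DMSO and 96.3 and 116 with I3MO, a log2 change of -1.61 ± 0.10 (limma adjusted p = 7.93e-07). HSPD1, the mitochondrial chaperonin, had 38.1 and 57.9 FPKM with DMSO and 90.7 and 85.6 with I3MO, a log2 change of 0.89 ± 0.18 (limma adjusted p = 0.00199). Each had groups that did not overlap. HSPA8 was called at -0.77 but not without I3MO library 1 (limma adjusted p = 0.142), and BAG3 and HSF1 did not pass.

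Origin licensing is the loading of the MCM helicase onto DNA in G1, and most transcripts of its list were lower. Of 19 members of the licensing and helicase list 12 fell and 2 rose, with 10 and 0 firm, and the median log2 change was -0.66. MCM5 had 21.1 and 20.5 FPKM with DMSO and 6.68 and 7.099 with I3MO, a log2 change of -1.47 ± 0.07 (limma adjusted p = 1.54e-07). MCM2 had 36.4 and 35.2 FPKM with DMSO and 13.04 and 12.99 with I3MO, a log2 change of -1.39 ± 0.08 (limma adjusted p = 2.43e-07). MCM7 had 31.3 and 31.9 FPKM with DMSO and 10.9 and 12.3 with I3MO, a log2 change of -1.37 ± 0.10 (limma adjusted p = 1.58e-06). In each both I3MO libraries were below both DMSO libraries, and libraries of a group lay close together. GINS2, of the GINS helicase cofactor, and CDT1, the licensing factor, had 39.6 and 35.1 FPKM with DMSO and 15.7 and 17.5 with I3MO (log2 change of -1.12 ± 0.11, limma adjusted p = 1.36e-05) and 37.2 and 36.2 FPKM with DMSO and 22.1 and 23.4 with I3MO (log2 change of -0.67 ± 0.07, limma adjusted p = 3.96e-05). MCM6, CDC6, GMNN, ORC6 and MCM10 did not pass, with log2 changes from -0.07 to 0.48. MCM6 had 20.1 and 33.99 FPKM with DMSO and 37.9 and 35.7 with I3MO, so DMSO library 2 lay just below the I3MO libraries and DMSO library 1 far below. DBF4 and CDC7, the kinase pair that fires origins, were called higher (0.75 and 0.68) but not after smoothing (0.15, limma adjusted p = 0.306 and 0.13, limma adjusted p = 0.463).

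E2F factors drive these genes at the start of S phase. A site of 8 bases, TTTCCCGC or TTTGGCGC on either strand, was found in windows of 750 of 27305 genes (2.75%), of 10 of 16 licensing genes and of 8 of 24 fork and nucleotide genes. The stretches around it (capitals) are given for 4 licensing genes that fell, MCM7 (chr7:100101553-100101608), GINS2 (chr16:85688955-85689009), MCM3 (chr6:52284885-52284940) and CDT1 (chr16:88803730-88803785), on the strand of the gene in GRCh38.p14, with GCGGGAAA being the first form on the other strand.
MCM7: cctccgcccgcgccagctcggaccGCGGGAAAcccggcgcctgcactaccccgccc
GINS2: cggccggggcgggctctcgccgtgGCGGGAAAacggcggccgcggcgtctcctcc
MCM3: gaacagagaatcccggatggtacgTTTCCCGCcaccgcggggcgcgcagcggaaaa
CDT1: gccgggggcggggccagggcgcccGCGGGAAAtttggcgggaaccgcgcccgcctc

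The site stood in the windows of 6.53% of members that fell, 4.08% of those that rose and 4.98% of those that did not pass, and in 6.99%, 2.85% and 5.21% after smoothing. Carriers differed here also: MCM6, CDC6 and GMNN hold it and did not pass. CDC7 holds it too and was called higher (0.68), though not after smoothing.

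Of 27 members of replication forks and nucleotide synthesis 13 fell and 5 rose, with 8 and 1 firm, and the number that fell was 9 without DMSO library 1 and 9 without I3MO library 1. TK1, thymidine kinase, had 38.3 and 40.7 FPKM with DMSO and 13.5 and 15.5 with I3MO, a log2 change of -1.39 ± 0.19 (limma adjusted p = 0.000159). RRM2, the S-phase subunit of ribonucleotide reductase, had 123 and 112 FPKM with DMSO and 50.5 and 53.9 with I3MO, a log2 change of -1.15 ± 0.28 (limma adjusted p = 0.0062). PCNA, the sliding clamp, had 100.4 and 111 FPKM with DMSO and 62.8 and 68.6 with I3MO, a log2 change of -0.68 ± 0.16 (limma adjusted p = 0.00538). The groups stood apart in all 3. In the list of E2F factors and RB proteins 4 of 12 members rose and 4 fell, with 0 and 3 firm: E2F1 had 30.6 and 29.7 FPKM with DMSO and 16 and 15.5 with I3MO (log2 change of -0.90 ± 0.14, limma adjusted p = 0.000428), E2F2 had 38.8 and 32.2 FPKM with DMSO and 14.3 and 15.98 with I3MO (log2 change of -1.17 ± 0.09, limma adjusted p = 4.13e-06) and E2F8 changed by -0.57, all firm. RB1, RBL1 and RBL2, the pocket proteins that restrain E2F, were called higher (0.65, 0.56 and 0.51) but were called neither with every library left out in turn nor after smoothing, the latter at adjusted p of 0.406, 0.757 and 0.374 with limma.

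Mitosis genes were mixed. Of 26 members 7 rose and 9 fell, with 1 and 8 firm, and after smoothing 1 rose and 10 fell. CDC20, an activator of the anaphase-promoting complex, had 78.5 and 79.2 FPKM with DMSO and 38.4 and 45.6 with I3MO, a log2 change of -0.90 ± 0.15 (limma adjusted p = 0.00075). PLK1 and AURKB, mitotic kinases, changed by -0.72 and -0.60. BUB1, a checkpoint kinase, was the firm rise, with 3.23 and 5.36 FPKM with DMSO and 12.01 and 10.2 with I3MO, a log2 change of 1.22 ± 0.21 (limma adjusted p = 0.000666). No overlap between groups was seen in these genes. CDK1 was called at 0.52, not without DMSO library 1 (limma adjusted p = 0.0782), and after smoothing at -0.21 in the opposite direction. MKI67 did not pass, with 4.43 and 5.91 FPKM with DMSO and 5.72 and 4.33 with I3MO (-0.03). TOP2A had 13.7 and 30.02 FPKM with DMSO and 37.2 and 27.3 with I3MO, so DMSO library 2 lay between the I3MO libraries, and did not pass (limma adjusted p = 0.115).

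CDKN1A, encoding the CDK inhibitor p21, had 2.12 and 2.02 FPKM with DMSO and 8.07 and 9.23 with I3MO, a log2 change of 1.65 ± 0.25 (limma adjusted p = 0.000354). Both I3MO libraries stood far above both DMSO libraries. Among 12 p53 target members 6 rose, 3 of them firm (CDKN1A, ZMAT3 and SESN1), and none fell. Of these members SESN1 and RRM2B passed the minimum through the I3MO libraries only and BBC3 through the DMSO libraries only, and under median-ratio scaling 4 rose and 1, BAX, fell. Without I3MO library 1 the number that rose was 3. ZMAT3, an RNA-binding protein, had 0.641 and 1.297 FPKM with DMSO and 4.99 and 3.51 with I3MO, a log2 change of 1.42 ± 0.28 (limma adjusted p = 0.00163), and MDM2, the ligase that degrades p53, was called at 0.50 but not without DMSO library 1 (limma adjusted p = 0.153). BAX and BBC3 did not pass. Of 6 CDK inhibitors 2 rose and 1 fell. CDKN2D, encoding p19, fell by 0.88, and CDKN1B did not pass (0.07). Of 8 G1 cyclins and kinases 1 rose and 3 fell. CDK6 rose, with 6.88 and 12.5 FPKM with DMSO and 36.9 and 21.9 with I3MO (log2 change of 1.51 ± 0.29, limma adjusted p = 0.00148), and CCND3 and CDK2 fell, with 9.56 and 9.34 FPKM with DMSO and 4.38 and 5.11 with I3MO (log2 change of -0.87 ± 0.09, limma adjusted p = 2.22e-05) and 5.94 and 4.77 FPKM with DMSO and 2.97 and 3.35 with I3MO (log2 change of -0.61 ± 0.10, limma adjusted p = 0.000534), all firm. CCND1 and CCND2 did not pass (limma adjusted p = 0.816 and limma adjusted p = 0.247). MYC had 40.4 and 33.1 FPKM with DMSO and 22.1 and 23.7 with I3MO and did not pass (-0.66, limma adjusted p = 0.195).

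Linker histones bind DNA between nucleosomes, and H1-2 and H1-10 fell in a firm way. H1-2 had 338 and 352 FPKM with DMSO and 72.3 and 88.6 with I3MO, a log2 change of -2.10 ± 0.19 (limma adjusted p = 8.55e-06). H1-10 had 188 and 203 FPKM with DMSO and 44.8 and 48.7 with I3MO, a log2 change of -2.04 ± 0.17 (limma adjusted p = 5.39e-06). Both I3MO libraries were far below both DMSO libraries in each. H1-4 was called at -1.34 but not without DMSO library 2 (limma adjusted p = 0.118) or after smoothing (-1.10, limma adjusted p = 0.0782), and H1-3 did not pass. H1-2, H1-3 and H1-4 are replication-dependent histone genes, which share sequence with their copies and whose mRNA mostly lacks a poly(A) tail, and H1-10 is not.

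All 7 MHC class II members fell, each firm, with a median log2 change of -1.14. CIITA, the master activator of the class II genes, had 2.29 and 1.91 FPKM with DMSO and 0.616 and 0.439 with I3MO, a log2 change of -1.02 ± 0.10 (limma adjusted p = 2.14e-05). CD74, the invariant chain, had 50.9 and 47.1 FPKM with DMSO and 10.99 and 11.4 with I3MO, a log2 change of -2.04 ± 0.14 (limma adjusted p = 1.61e-06). HLA-DRA, the DR alpha chain, had 57.8 and 51.8 FPKM with DMSO and 12.5 and 12.8 with I3MO, a log2 change of -2.03 ± 0.15 (limma adjusted p = 2.05e-06). Both I3MO libraries were far below both DMSO libraries in each. HLA-DPA1 and HLA-DMA fell by 1.30 and 0.78. CIITA, HLA-DRB1 and HLA-DRB5 were members through the DMSO libraries only and so had to fall. HLA-DPB1, no member, had 0.555 and 0.887 FPKM with DMSO and 0.167 and 0.201 with I3MO. HLA genes are polymorphic and share sequence, and their levels against a reference genome are uncertain. In MHC class I 2 of 9 members rose and 4 fell, with 0 and 3 firm. HLA-B had 38.8 and 38.7 FPKM with DMSO and 17.3 and 21.3 with I3MO (log2 change of -0.98 ± 0.12, limma adjusted p = 7.38e-05), TAP1, a peptide transporter, had 13.5 and 13.8 FPKM with DMSO and 6.72 and 6.85 with I3MO (log2 change of -0.91 ± 0.14, limma adjusted p = 0.000315), and TAPBP, which bridges both, had 7.49 and 7.87 FPKM with DMSO and 3.91 and 3.38 with I3MO (log2 change of -0.90 ± 0.12, limma adjusted p = 0.000141). Groups did not overlap for these 3, whereas B2M did not pass (0.04).

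APOBEC3 genes encode cytidine deaminases that edit single-stranded DNA. All 5 members fell and all 5 calls were firm. APOBEC3B had 16.1 and 15.01 FPKM with DMSO and 3.86 and 4.59 with I3MO, a log2 change of -1.67 ± 0.10 (limma adjusted p = 6.48e-07). APOBEC3C had 88.6 and 68.9 FPKM with DMSO and 35.9 and 34.8 with I3MO, a log2 change of -1.12 ± 0.12 (limma adjusted p = 2.56e-05). The others, APOBEC3D, APOBEC3F and APOBEC3G, changed by -0.85, -0.72 and -0.61. No library of 1 group overlapped the other in any of the 5, as was so for 76.4% of all members. Sequence shared between the copies makes their separate levels uncertain. Interferon-stimulated genes did not move together: of 12 members 2 rose and 3 fell, with 1 and 2 firm. ISG15, a ubiquitin-like protein, had 18.4 and 22.6 FPKM with DMSO and 5.14 and 5.69 with I3MO, a log2 change of -1.74 ± 0.22 (limma adjusted p = 0.000109), and IRF1 had 4.66 and 3.87 FPKM with DMSO and 2.09 and 1.96 with I3MO, a log2 change of -0.79 ± 0.14 (limma adjusted p = 0.000835). GBP2, a member through the I3MO libraries only, rose by 0.66.

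Transcripts of several surface proteins of myeloma cells were lower and those of others higher. The list had a median log2 change of 0.13 before smoothing and -0.43 after it. Of 13 surface antigen members 5 fell and 3 rose, with 3 and 2 firm, and 3 fell without I3MO library 1. SDC1, the plasma cell marker syndecan 1 (CD138), had 149 and 152 FPKM with DMSO and 60.8 and 63.7 with I3MO, a log2 change of -1.26 ± 0.24 (limma adjusted p = 0.00125). CXCR4, the bone marrow homing receptor, had 5.65 and 3.94 FPKM with DMSO and 0.816 and 0.726 with I3MO, a log2 change of -1.69 ± 0.37 (limma adjusted p = 0.00364). TNFRSF17, the receptor BCMA, had 46.2 and 59.97 FPKM with DMSO and 14.5 and 17.1 with I3MO, a log2 change of -1.68 ± 0.41 (limma adjusted p = 0.00707). The I3MO libraries lay below the DMSO libraries in all 3. CXCR4 was a member through the DMSO libraries only. TNFRSF17 was not called without I3MO library 1 (limma adjusted p = 0.054), and was after smoothing (-2.09, limma adjusted p = 0.00201). CD28, a costimulatory receptor, and ITGB1, an adhesion integrin, rose, with 9.27 and 9.84 FPKM with DMSO and 28.6 and 26.9 with I3MO (log2 change of 1.45 ± 0.21, limma adjusted p = 0.000293) and 6.63 and 10.2 FPKM with DMSO and 26 and 21.05 with I3MO (log2 change of 1.40 ± 0.21, limma adjusted p = 0.000312). CD38 did not pass, with 7.58 and 6.87 FPKM with DMSO and 5.63 and 4.63 with I3MO (-0.43, limma adjusted p = 0.255).

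Among 9 factors of B cell and plasma cell identity 3 rose and 3 fell, with 0 and 3 firm. IRF4, on which myeloma cells depend, had 114 and 89.2 FPKM with DMSO and 82.01 and 75.5 with I3MO and did not pass (limma adjusted p = 0.468). PRDM1, encoding BLIMP1, was called at 0.68 but not without DMSO library 2 (limma adjusted p = 0.133) or after smoothing (0.50, limma adjusted p = 0.0703). POU2AF1, a coactivator of immunoglobulin genes, had 7.95 and 6.94 FPKM with DMSO and 2.297 and 2.54 with I3MO, a log2 change of -1.30 ± 0.28 (limma adjusted p = 0.00341), and IRF8, a member through the DMSO libraries only, had 1.12 and 1.27 FPKM with DMSO and 0.172 and 0.182 with I3MO, a log2 change of -0.90 ± 0.06 (limma adjusted p = 1.53e-06). Both fell with no overlap between groups. Of 5 immunoglobulin members 2 fell, both firm. IGKC, the kappa constant region, had 18.2 and 16.5 FPKM with DMSO and 4.01 and 4.099 with I3MO, a log2 change of -1.86 ± 0.11 (limma adjusted p = 4.74e-07), and IGHG1 had 3.86 and 3.34 FPKM with DMSO and 1.601 and 1.43 with I3MO, a log2 change of -0.87 ± 0.07 (limma adjusted p = 5.91e-06). JCHAIN, the joining chain of secreted antibodies, and MZB1, an ER cochaperone of plasma cells, did not pass (limma adjusted p = 0.622 and limma adjusted p = 0.965).

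Signalling genes divided. In the IL6 and STAT3 list 1 of 12 members rose and 4 fell, with 1 and 3 firm, and under median-ratio scaling 7 were lower. IL6ST, the shared receptor gp130, had 0.329 and 0.548 FPKM with DMSO and 3.23 and 2.06 with I3MO, a log2 change of 1.33 ± 0.25 (limma adjusted p = 0.00124), whereas PIM1, a kinase downstream of STAT3, had 6.83 and 6.88 FPKM with DMSO and 3.06 and 2.9 with I3MO, a log2 change of -0.98 ± 0.21 (limma adjusted p = 0.00291). IL6ST was a member through the I3MO libraries only. STAT3 itself did not pass (-0.28). In the list of ID proteins and BMP signalling 6 of 14 members rose and 5 fell, with 2 and 3 firm. SMAD5, a BMP effector, rose and SMAD7, an inhibitor, fell, by 1.33 and 0.87, and ID1 did not pass (limma adjusted p = 0.236). Of 9 MAPK phosphatases and signal brakes 2 rose and 2 fell. DUSP6, a phosphatase of ERK, had 6.24 and 5.06 FPKM with DMSO and 9.32 and 9.17 with I3MO (log2 change of 0.63 ± 0.11, limma adjusted p = 0.000951), and DUSP10, a phosphatase of JNK and p38 and a member through the DMSO libraries only, had 2.36 and 2.13 FPKM with DMSO and 0.6 and 0.543 with I3MO (log2 change of -1.05 ± 0.12, limma adjusted p = 5.71e-05). Of 15 immediate early genes 3 rose and 4 fell, KLF2 among them, with 1 and 1 firm. BTG2, an antiproliferative gene, had 10.8 and 8.33 FPKM with DMSO and 18.4 and 18.9 with I3MO, a log2 change of 0.90 ± 0.20 (limma adjusted p = 0.00368). EGR1 had 12.3 and 11.3 FPKM with DMSO and 26.99 and 24.6 with I3MO and an SE of 0.68, and did not pass (limma adjusted p = 0.264).

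Of 6 members among the aryl hydrocarbon receptor genes 3 rose and 2 fell, with 3 and 1 firm. CYP1A1, the classic induced target, had 0.327 and 0.2896 FPKM with DMSO and 1.22 and 1.22 with I3MO, a log2 change of 0.76 ± 0.08 (limma adjusted p = 1.76e-05), and TIPARP had 0.604 and 0.737 FPKM with DMSO and 2.19 and 1.64 with I3MO, a log2 change of 0.80 ± 0.13 (limma adjusted p = 0.000497). Both rose from under 1 FPKM with no overlap, and were members through the I3MO libraries only. CYP1B1, no member, had 0.0968 and 0.1503 FPKM with DMSO and 1.25 and 0.926 with I3MO. The receptor itself, AHR, had 0.367 and 0.7005 FPKM with DMSO and 0.8097 and 0.8801 with I3MO and was not fitted, and AHRR, its repressor, did not pass (limma adjusted p = 0.121). Of 11 members among the transcriptional kinases and their partners 5 rose and 2 fell, with 3 and 1 firm. CCNT1, the cyclin of CDK9, had 1.25 and 2.53 FPKM with DMSO and 10.2 and 7.74 with I3MO, a log2 change of 1.81 ± 0.26 (limma adjusted p = 0.000255). HEXIM1, which holds that kinase inactive, had 24.2 and 25.9 FPKM with DMSO and 14.2 and 14.3 with I3MO, a log2 change of -0.77 ± 0.17 (limma adjusted p = 0.00372). CDK9 itself had 12.5 and 12.9 FPKM with DMSO and 13.02 and 13.4 with I3MO and did not pass.

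In the BCL2 family 2 of 12 members rose and 4 fell, with 1 and 2 firm. PMAIP1, encoding the BH3-only protein NOXA, had 5.004 and 7.03 FPKM with DMSO and 16.1 and 16.8 with I3MO, a log2 change of 1.33 ± 0.16 (limma adjusted p = 6.88e-05). BMF and BIK, also BH3-only proteins, had 8.67 and 7.095 FPKM with DMSO and 3.71 and 3.73 with I3MO (log2 change of -0.91 ± 0.08, limma adjusted p = 7.84e-06) and 4.45 and 5.26 FPKM with DMSO and 1.47 and 1.46 with I3MO (log2 change of -1.24 ± 0.15, limma adjusted p = 6.59e-05). Groups did not overlap in these genes, whose products all promote apoptosis. MCL1, on which myeloma cells often depend, had 79.4 and 75.3 FPKM with DMSO and 76.5 and 73.8 with I3MO and did not pass (-0.04). BCL2 was called at 0.91 but not without I3MO library 1 (limma adjusted p = 0.0681).

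In the joint list of glycolysis and hypoxia genes 10 of 18 members fell and 2 rose, with 3 and 1 firm. The list median was -0.41, and -0.33 without I3MO library 1. ENO1 had 634 and 643 FPKM with DMSO and 378 and 422 with I3MO, a log2 change of -0.68 ± 0.11 (limma adjusted p = 0.000535), TPI1 had 181 and 204 FPKM with DMSO and 113 and 134 with I3MO, a log2 change of -0.64 ± 0.11 (limma adjusted p = 0.000827), and GPI had 25.5 and 22.5 FPKM with DMSO and 14.8 and 15.9 with I3MO, a log2 change of -0.61 ± 0.12 (limma adjusted p = 0.00145). The I3MO libraries lay below the DMSO libraries in each. GAPDH was called at -0.86, and not after smoothing (-0.53, limma adjusted p = 0.0636). After smoothing 5 members were lower and 4 higher. In cholesterol synthesis 6 of 21 members rose and 2 fell, with 4 and 0 firm, and under median-ratio scaling 4 rose and 7 fell. MSMO1, a methylsterol oxidase, had 7.26 and 11.9 FPKM with DMSO and 27.4 and 25.3 with I3MO (log2 change of 1.40 ± 0.21, limma adjusted p = 0.000276), and SC5D and STARD4, the latter a member through the I3MO libraries only, rose by 0.84 and 1.15. SREBF2 did not pass. ELOVL6, a fatty acid elongase, rose by 1.65 (limma adjusted p = 0.000161).

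Of 30 cytosolic ribosomal proteins 2 rose and 4 fell, with 1 firm call, and under median-ratio scaling 1 was higher and 16 lower. With 1 ARP1 library left out the number that fell was 0 without DMSO library 2 and without I3MO library 1, and 9 without I3MO library 2. RPS23 was the firm rise, with 10.5 and 12.2 FPKM with DMSO and 21.6 and 22.2 with I3MO, a log2 change of 0.89 ± 0.16 (limma adjusted p = 0.000915). Ribosomal protein genes have many processed copies, which makes single levels uncertain. Of 13 protein-coding transcripts of the mitochondrial genome 5 rose, none of them firm. MT-ND6 had 332 and 272 FPKM with DMSO and 619.7 and 639.8 with I3MO, a log2 change of 1.06 ± 0.24 (limma adjusted p = 0.00393), and MT-CO2 had 5494 and 4292 FPKM with DMSO and 7662 and 7700.1 with I3MO, a log2 change of 0.66 ± 0.18 (limma adjusted p = 0.0132). DMSO library 2 was the lower DMSO library in both, and without it or without I3MO library 1 the number called was 1. Of 27 nuclear genes of the respiratory chain 3 rose and 4 fell, with 1 and 2 firm (UQCRC2 higher and ATP5F1B among the lower), and after smoothing 3 rose and 9 fell.

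The response of ARP1 differed from the mean response of RPMI8226 and U266 at the same dose for 5246 of 15687 fitted genes, 33.4%, with 23% higher and 10.4% lower in ARP1. Of members 4252 differed, and 1914 of these also did, with the same sign, after smoothing. Of the genes named next, all but CDKN1A and EGR1 were chosen as the largest changes in ARP1, and that choice favours a difference. IL10 and SESN3 were members through the I3MO libraries only, and CUX2, SOCS1 and DPEP3 through the DMSO libraries only. Their p-values for the difference are therefore descriptions and no independent support. IL10 had a log2 change of 3.37 in ARP1, -0.07 in RPMI8226 and 0.13 in U266, a difference of 3.34, limma adjusted p = 3.84e-09. SESN3 changed by 2.37 in ARP1 and by less than 0.01 in either of the others (2.37, limma adjusted p = 7.41e-06 for the difference). CDKN1A rose in ARP1 and changed by -0.82 in RPMI8226 and -0.89 in U266, a difference of 2.51, limma adjusted p = 0.000185. SOCS1 changed by -2.23 in ARP1, 0.11 in RPMI8226 and 0.50 in U266, a difference of -2.53, limma adjusted p = 2.65e-05. CUX2, DPEP3 and NAPSA also had lower responses in ARP1, by differences of -3.14, -2.08 and -1.77, and all of these differences held after smoothing. EGR1, which did not pass in ARP1, changed by -0.53 in RPMI8226 and -5.21 in U266, a difference of 3.94, limma adjusted p = 0.00421. For GPRC5D the difference of -2.41, limma adjusted p = 0.027 was lost after smoothing (limma adjusted p = 0.0538).

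Other responses were not told apart from those of the 2 lines without smoothing. ATF4 changed by 0.97 in ARP1, 0.80 in RPMI8226 and 1.31 in U266 (difference -0.08, limma adjusted p = 0.655), and after smoothing the difference was called with the opposite sign (0.28, limma adjusted p = 0.0325). ASNS changed by 1.61, 1.16 and 1.43 (difference 0.31, limma adjusted p = 0.149), and CHAC1 by 1.95, 1.48 and 2.07 (difference 0.18, limma adjusted p = 0.753). APOBEC3B changed by -1.67, -1.46 and -1.66 (difference -0.11, limma adjusted p = 0.557). A p that misses the threshold does not show that these responses were alike. The licensing genes had list medians of -0.66 in ARP1, -0.27 in RPMI8226 and -1.40 in U266, and 5 of 19 members differed upward in ARP1 from the mean of both lines and 1 downward, shares near the 23% and 10.4% of fitted genes. ARP1 was not tested against U266 alone. The p53 targets had medians of 0.36, -0.36 and -0.34, and 7 of 12 differed upward. For mitochondrial transcripts the medians were 0.56, -0.43 and -0.60, and 10 of 13 differed upward.

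**Figure D4:**
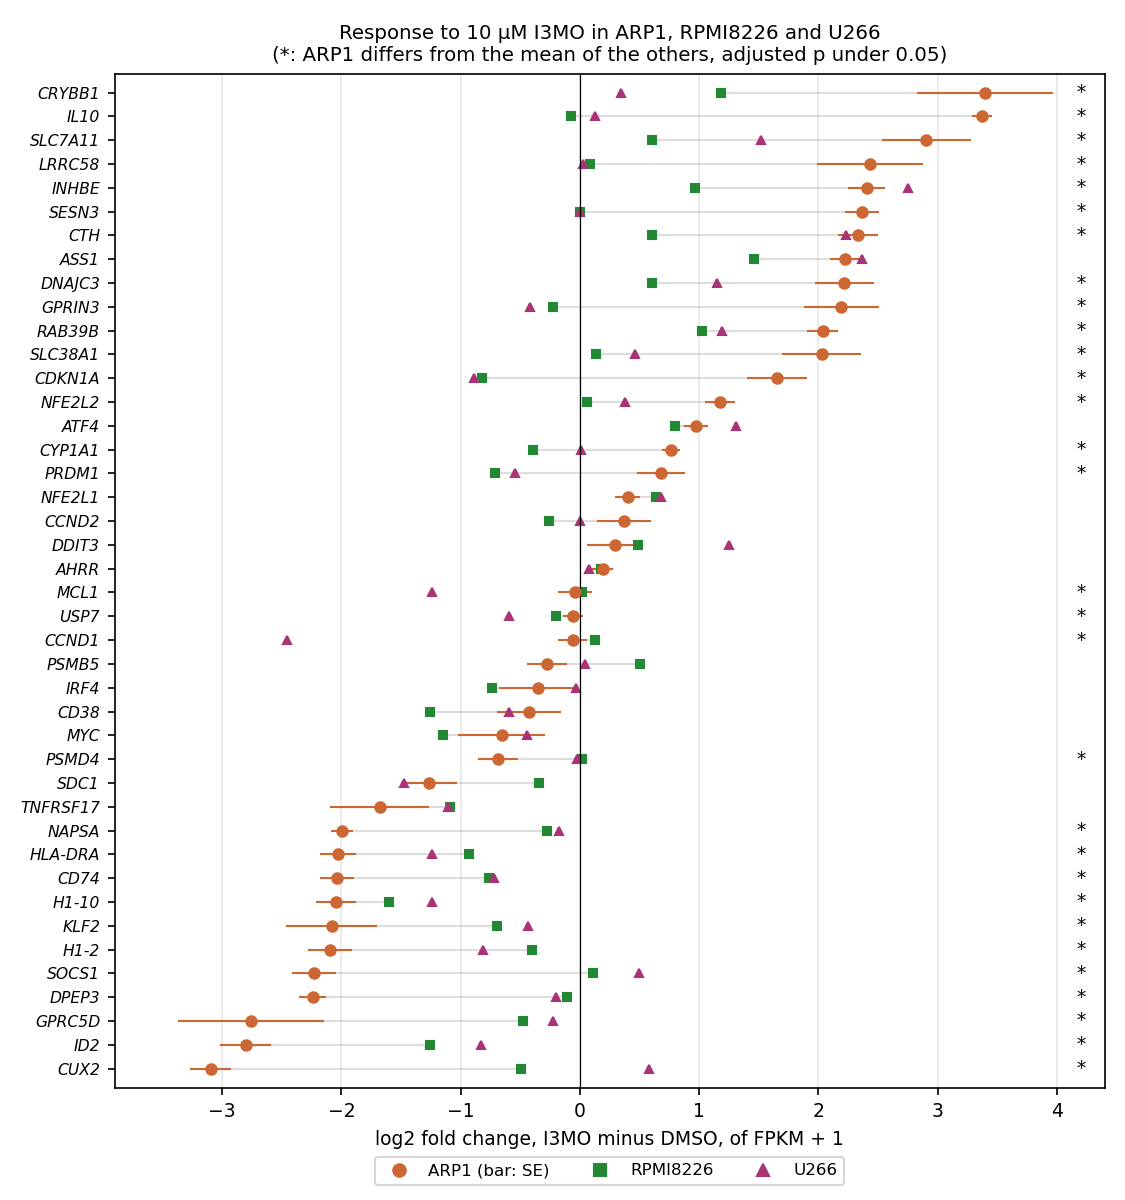
Log2 change under 10 µM I3MO of 23 genes with the largest changes in ARP1 and of further named genes, in ARP1 (circles, bars are SE), RPMI8226 (squares) and U266 (triangles). An asterisk marks an adjusted p under 0.05 for the difference between ARP1 and the mean of the others. IL10, SESN3 and CDKN1A stand apart to the right in ARP1, and SOCS1, DPEP3 and CUX2 to the left, while ATF4 and ASS1 have no asterisk.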

How the data were processed

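RNA-seq of total RNA gave 1 deposited table of FPKM values for 60483 genes in 20 libraries, 2 for each of 10 groups. The authors made the FPKM values from reads trimmed with Trimmomatic (versions 0.32 and 0.36 are named), with STAR, SAMtools and build hg38, per the submitters' processing notes. The counting tool, its strand setting and the annotation are not given in the sources used here. Antisense and overlapping genes, and genes with near-identical copies, are therefore uncertain. The steps between FPKM values of multi-transcript genes fitted whole fragments in all libraries for 54.3% of 1548 genes with exons summed over transcripts and for 0.1% with merged exons (tolerance 0.02). Levels of different genes are therefore not strictly comparable, and changes are read within a gene. The summed markers, and the level of SLC7A5 beside other transporters, are rough descriptions only. Single-exon values came out whole for 86.6% to 87.2% in the ARP1 libraries. Total fragments per library ran from 12100000 to 20290000 over the series.

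FPKM are not counts, so limma 3.58.1 (R 4.3.3) was fitted to log2(FPKM + 1), using all 20 libraries, 1 mean for each group, a variance trend and two-sided moderated tests. Genes with at least 1 FPKM in at least 2 libraries (15687) were fitted, p-values were Benjamini-Hochberg adjusted over them, and calls were made at 0.05. The contrast between models was ARP1 minus the mean of RPMI8226 and U266. The median-ratio factors of the ARP1 libraries were 0.924, 0.966, 1.14 and 1.10. Smoothing used lowess curves on GC share and log length of the longest GENCODE 29 transcript, against the mean of the 4 libraries of each model. Promoter windows are from RefSeq (GRCh38.p14): 27305 genes and 35116 windows, with 6941 protein-coding members matched by symbol. The fit was also run on simulated data with the spread drawn independently for each gene and library. Differences along GC share between libraries of a group were not simulated, so that run does not bear on them.

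Genes were named by rule: the 12 largest rises and falls among called protein-coding members that do not overlap and reach a mean of 5 FPKM, the 3 members of each of 53 lists with the smallest p, a set of genes of interest, and 3 long non-coding genes each way at a mean of at least 2 FPKM. Further members of the lists were named with their values after these were seen, and some genes are not reported here. The members, lists and rule were chosen with earlier results of these data known. Libraries with the same number did not deviate together (correlation of -0.157), so no pairing was used.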

Additional observations from a re-analysis of the deposited data

Results flagged for a closer look

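The response of ARP1 differed from the mean response of RPMI8226 and U266 at the same dose (limma, adjusted p under 0.05) for the following genes among those chosen as largest changes or as genes of interest. All differences here are on the log2(FPKM + 1) scale, ARP1 minus the mean of the others, and a difference can come from any of the 3 lines. The largest rises and falls were chosen by their change in ARP1, and that choice favours a difference from the other lines.

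Among the largest rises the differences were 3.34 for IL10, 2.63 for CRYBB1, 2.51 for GPRIN3, 2.38 for LRRC58, 2.37 for SESN3, 1.84 for SLC7A11, 1.73 for SLC38A1, 1.34 for DNAJC3, 0.93 for RAB39B, 0.92 for CTH and 0.55 for INHBE. IL10, LRRC58 and SESN3 had responses between -0.07 and 0.13 in RPMI8226 and U266, GPRIN3 changed there by -0.22 and -0.42, whereas INHBE responded more in U266 (2.75) than in ARP1 (2.40). Among the largest falls they were -3.14 for CUX2, -2.53 for SOCS1, -2.41 for GPRC5D, -2.08 for DPEP3, -1.77 for NAPSA, -1.76 for ID2, -1.52 for KLF2, -1.49 for H1-2, -1.30 for CD74, -0.94 for HLA-DRA and -0.62 for H1-10. CUX2 changed by -0.49 in RPMI8226 and 0.58 in U266, so the other lines moved in different directions.

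Among the genes of interest CDKN1A differed by 2.51, PRDM1 by 1.30, CCND1 by 1.11, CYP1A1 by 0.96, NFE2L2 by 0.96, MCL1 by 0.57, USP7 by 0.34 and PSMD4 by -0.69. CCND1 did not pass in ARP1, and its value in U266 was -2.46. MCL1 likewise did not pass in ARP1 and had -1.24 in U266. Long non-coding genes with a difference were ENSG00000273199 (2.89), ENSG00000271992 (2.46), ENSG00000259865 (2.38) and ENSG00000274677 (-1.44).

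After GC and length smoothing the difference was not called for 8 of these genes: CTH (limma adjusted p = 0.0598), DNAJC3 (limma adjusted p = 0.0841), GPRC5D (limma adjusted p = 0.0538), KLF2 (limma adjusted p = 0.0669), H1-10 (limma adjusted p = 0.0908), USP7 (limma adjusted p = 0.553), PSMD4 (limma adjusted p = 0.306) and MCL1 (limma adjusted p = 0.178). For ASS1 the difference (0.31, limma adjusted p = 0.136) was called only after smoothing (0.63, limma adjusted p = 0.00145), and so was that of ATF4 (-0.08, limma adjusted p = 0.655, and after smoothing 0.28, limma adjusted p = 0.0325).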

How the results depend on the processing

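Against 5801 genes called in ARP1, a minimum of 5 FPKM gave 3339, the 4 ARP1 libraries alone 227, and smoothing with the replicate block 3592. For the difference from RPMI8226 and U266, 5246 genes, the values were 2931 at 5 FPKM, 3334 after smoothing and 2297 after smoothing with the block. With 1 ARP1 library left out, the other of its group being assumed to vary like the rest, the counts ran from 3509 to 5159 and from 2892 to 4739. The lowest were without I3MO library 1 (3509 and 2892) and then without DMSO library 1 (3681 and 3227). Fewer genes were fitted at 5 FPKM; the cause of the other shifts was not tested. Median-ratio scaling moved the share of calls that were higher from 62.5% to 42.8%, and for the difference from 68.9% to 45.2%; smoothing gave 56.8%. Pseudocounts of 0.1 and 0.5, no filter, members alone, no trend and protein-coding genes only kept both counts within 1.5 times.

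None of the genes named by rule and called changed sign under any setting, but 30 members were called in the opposite direction after smoothing, ERO1A and CDK1 among them. Of 165 named genes that were called, 123 were called under every setting tried except the 4 ARP1 libraries alone, which lost 133; smoothing lost 30 and scaling 10. The replicate block gave 4854 calls for ARP1 and 3863 for the difference and lost 4 named genes, and with the ARP1 numbers crossed the counts were 5064 and 4317. The labels give no reason to pair libraries. With 2 libraries a group, changes of low genes were not detectable where they fell under the spread.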

Other observations

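Of 359 lincRNA members 118 rose and 35 fell, with a median log2 change of 0.24, of 328 antisense genes 81 rose and 30 fell (0.18), and of 73 sense intronic genes 24 rose and 6 fell (0.36), beside 2676 and 1881 of 8370 protein-coding members (0.05) and 30.7% and 19.9% of all members. The shares of these classes that rose were thus near or below that of all members. Of 70 small nuclear RNAs 16 rose and 2 fell. The number of genes above 0 was also higher in the I3MO libraries, and its part and that of the GC pattern in these counts was not tested.

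ENSG00000271992, a long non-coding gene that starts after the annotated end of CTH (chr1:70445071-70445536), had 0.128 and 1.07 FPKM with DMSO and 15.9 and 15.02 with I3MO, a log2 change of 3.43 ± 0.30 (limma adjusted p = 7.08e-06). CTH itself rose, and reads running past its end cannot be told apart from the separate gene here. ENSG00000273199 (chr21:36319792-36320670) had 0.6097 and 0.442 FPKM with DMSO and 11.7 and 14.2 with I3MO, a log2 change of 3.19 ± 0.19 (limma adjusted p = 4.74e-07), and ENSG00000259865 had 0.86 and 2.18 FPKM with DMSO and 12.1 and 10.4 with I3MO, a log2 change of 2.33 ± 0.34 (limma adjusted p = 0.000252). HCFC1-AS1, antisense to HCFC1, was called at -1.54 but not without I3MO library 1 (limma adjusted p = 0.178), and ENSG00000272468 and ENSG00000274677 changed by -1.52 and -1.38. ENSG00000273199 was a member through the I3MO libraries only and ENSG00000274677 through the DMSO libraries only, so their directions were fixed by that.

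Other gene groups were mixed. In homologous recombination 4 of 11 members rose and 2 fell, with 2 and 1 firm: PALB2 and FANCD2, which act at damaged forks, rose by 0.87 and 0.61, PALB2 being a member through the I3MO libraries only. In ribosome biogenesis 5 of 18 rose and 4 fell, with 2 and 0 firm, and GNL3 and NOP58, nucleolar proteins, rose by 1.10 and 0.91. In autophagy and lysosome 7 of 17 rose and 2 fell, with 1 and 0 firm: LAMP2, a lysosomal membrane protein, had 5.86 and 6.67 FPKM with DMSO and 15.9 and 14.6 with I3MO, a log2 change of 1.16 ± 0.11 (limma adjusted p = 1.3e-05). Of 8 polyamine genes 2 rose and 2 fell, with AMD1, which makes decarboxylated S-adenosylmethionine, at 3.47 and 5.06 FPKM with DMSO and 13.4 and 10.1 with I3MO, a log2 change of 1.28 ± 0.17 (limma adjusted p = 0.000152). Of 10 NF-kB genes 1 rose and 4 fell, with RELB, a subunit of the alternative pathway, as the firm fall (-0.49). Of 8 members of the MYC and MAX network 4 fell, 1 firm, and after smoothing 1 was lower. LEF1, a WNT pathway factor, fell by 0.39 among 5 WNT members, of which GSK3B was called at 0.65 but not after smoothing (0.16, limma adjusted p = 0.289) or without I3MO library 1 (limma adjusted p = 0.0593). Of 9 MAF and NSD2 targets 2 rose and 2 fell, of 7 fatty acid synthesis genes 2 rose and 1 fell, and of 4 TXNIP-related genes 1 rose and 1 fell, ARRDC3 being called at 1.5 with 1.25 and 2.11 FPKM with DMSO and 8.001 and 5.23 with I3MO, but not after smoothing (0.85, limma adjusted p = 0.108) or without I3MO library 1 (limma adjusted p = 0.11).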
